A study of Mus musculus with 10 samples.

Results

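The 34 genes described here encode receptors for serotonin (Htr), dopamine (Drd), noradrenaline and adrenaline (Adra), acetylcholine (Chrm, muscarinic, and Chrn, nicotinic) and histamine (Hrh). They were taken by symbol: every probe set with exactly 1 gene symbol that started with Htr and a digit, Drd, Adra, Adrb and a digit, Chrm, Chrn or Hrh was kept, Htra genes were left out, and each gene was represented by its probe set with the highest mean over all arrays. This gave 36 probe sets and 34 genes, of 13534 genes with such a probe set. They comprised 12 Htr, 3 Drd, 2 Adra, 5 Chrm, 9 Chrn and 3 Hrh genes, and no Adrb gene met the rule. Genes of these families outside the 34 are not analysed here.

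The samples were whole forebrains taken at birth (postnatal day 0) from 5 double knockout pups (Elavl3-/-;Elavl4-/-) and 5 wild-type pups, all on a mixed C57BL/6 and CD-1 background, with 1 exon array per animal. Elavl3 and Elavl4 encode RNA-binding proteins of neurons that regulate splicing, stability and translation of messenger RNA. The comparison asks which forebrain transcripts differ when both genes are lost. The samples include no single knockout, so an effect of either gene alone cannot be told from an effect of both. The labels name no treatment and do not describe how the alleles were made. The series is described as littermate pairs, but no label ties a pup to its littermate, and the main comparison used no pairing.

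Most of these receptors pass signals through heterotrimeric G proteins. Gs-coupled receptors raise cyclic AMP, Gi-coupled receptors lower it and can open potassium channels, and Gq-coupled receptors activate phospholipase C. The Htr3 and Chrn subunits instead assemble into ion channels that the transmitter opens directly. In the forebrain, dopamine, serotonin, noradrenaline and histamine come from axons whose cell bodies lie in the midbrain, hindbrain and hypothalamus, and acetylcholine comes largely from the basal forebrain and from striatal interneurons, so most forebrain cells are on the receiving side of these systems.

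All values are log2 expression after robust multi-array averaging (RMA) by the authors, in which a difference of 1 is a doubling. The targeted genes followed the labels. Elavl3 averaged 6.03 ± 0.54 in double knockout forebrains and 11.11 ± 0.34 in wild-type forebrains, and Elavl4 averaged 6.26 ± 0.25 in double knockout forebrains and 7.58 ± 0.13 in wild-type forebrains (SD, n = 5 each); both fell in limma's fit (adjusted p = 3.15e-05 and adjusted p = 0.0130). One array stood apart: wild-type replicate 4 correlated with the other arrays at 0.933 to 0.946 over all probe sets, whereas every other pair reached at least 0.958. It held the highest or the lowest of the 10 values for 16 of the 34 receptor genes. For receptor genes described singly, the estimate without it is given where it moved by over 1.5 times. Striatal, cortical and astroglial marker genes were present in every array: 11 of 12 measured striatal projection neuron markers, 10 of 11 cortical and hippocampal markers and 8 of 8 astrocyte and radial glia markers lay above the background level defined next in all 10 arrays.

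Which receptors stood above background at birth was read against genes that forebrain should hardly transcribe. The background level of an array was the 95th percentile of 697 chemosensory receptor genes (590 olfactory and 107 vomeronasal, taste or trace amine receptors), each by its highest probe set. It lay at 5.79 to 5.97 in double knockout arrays and at 5.81 to 6.22 in wild-type arrays, where replicate 4 had the highest level and the next was 6.09. Of the 34 receptor genes, 21 (61.8%) exceeded it in all 10 arrays, against 57.9% of the 13534 genes and 2.30% of the chemosensory genes themselves. The receptor families as a whole were therefore above this level about as often as genes in general.

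The 21 were Htr1a, Htr1b, Htr2a, Htr3a, Htr4, Htr5a, Htr5b and Htr6 among serotonin receptors, Drd1, Drd2 and Drd4, Adra1b and Adra2c, Chrm1 to Chrm4 (Chrm1, Chrm2, Chrm3, Chrm4), the nicotinic subunits Chrna4, Chrna5 and Chrnb4, and Hrh3. A further 3 genes passed in some arrays: Chrm5 in 9, Chrna3 in 8 and Htr1d in 3. The other 10 passed in none, with single values between 3.81 and 5.72. They were Htr2b, Htr3b and Htr7, Hrh2 and Hrh4, and the nicotinic subunits Chrna1, Chrnb1, Chrne, Chrna2 and Chrna9. Chrna1, Chrnb1 and Chrne encode subunits of receptors of the neuromuscular junction, Chrna9 is known from cochlear hair cells, and Hrh4 is known mainly from blood cells. By family, all 3 dopamine and both adrenergic receptor genes passed in every array, as did 4 of 5 muscarinic, 8 of 12 serotonin, 3 of 9 nicotinic and 1 of 3 histamine receptor genes.

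**Figure D1:**
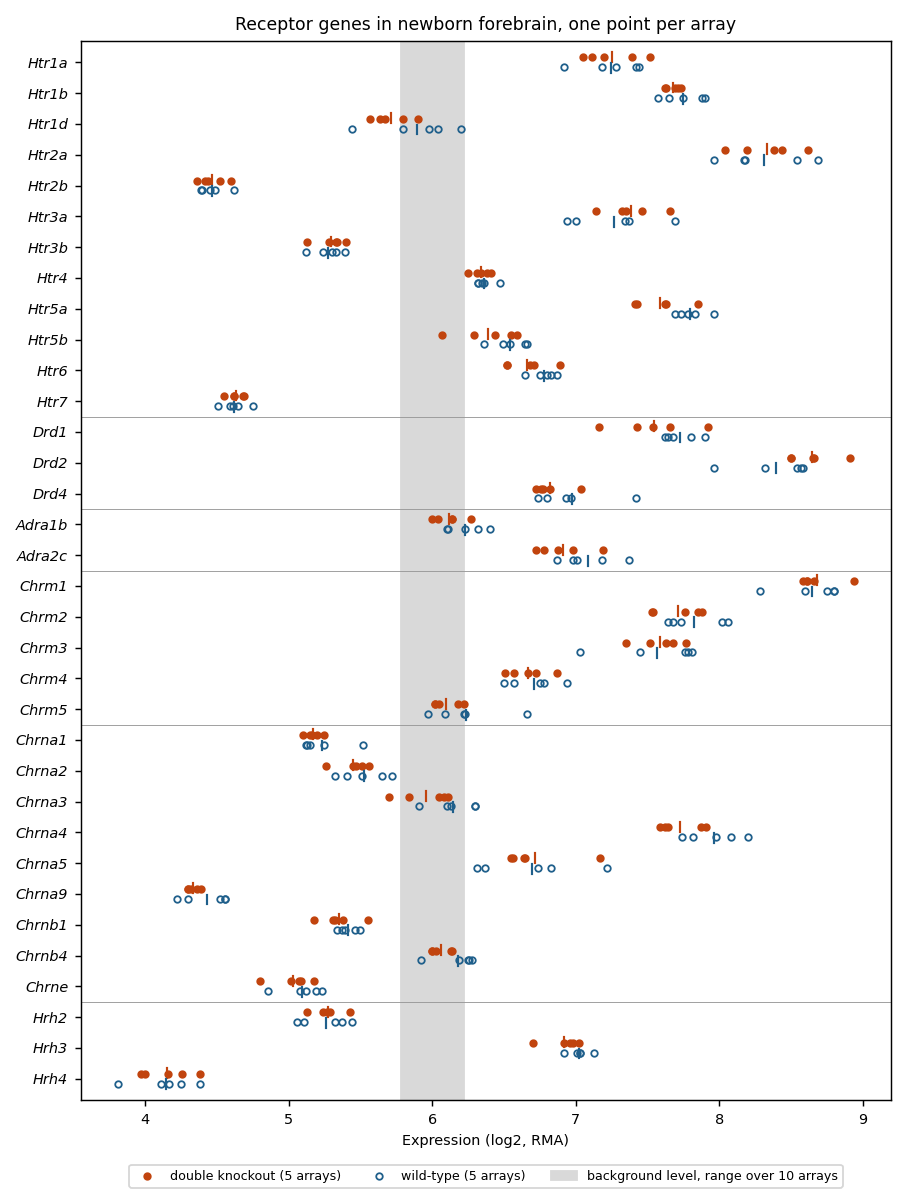
Expression (log2, RMA) of the 34 receptor genes, 1 point per array, with filled points for the 5 double knockout and open points for the 5 wild-type arrays, ticks at the group means, and the grey band spanning the background level over the 10 arrays. The points of 10 genes lie left of the band, 21 genes passed the level of their own array everywhere, and the points of both genotypes overlap in every gene.

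Several genes lay close to the limit. The 3 just inside were Chrnb4, Chrna5 and Adra1b, whose narrowest margins over the level of an array were 0.06, 0.09 and 0.10, and the 2 just outside were Chrm5 and Chrna3. With the 99th percentile of the chemosensory genes as the level (6.68 to 7.23), 9 receptor genes passed in every array: Htr1b, Htr2a, Htr3a, Htr5a, Drd1, Drd2, Chrm1, Chrm2 and Chrna4. Passing the level is not proof of a transcript. Of 9 skeletal muscle markers, 4 also passed in all 10 arrays (Myog, Acta1, Ckm and Actn2), and the other 5 passed in none. Whether forebrain cells transcribe any of those 4 was not tested. Probes also differ in brightness at equal RNA, so a gene below the level may still be transcribed, and levels are compared here between arrays and not between genes.

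Promoter sequence was available for 28 of the 34 genes (RefSeq, mouse build GRCm38.p6, 250 bases before to 50 bases after the annotated start). The 17 windows of genes above background in all arrays held a median of 14 CpG dinucleotides (range 3 to 47), the 8 windows of genes above it in none a median of 6.5 (range 1 to 46), and 27025 genes in general a median of 7. The motif GGGCGG, a GC box counted on either strand and itself holding a CpG, was present in 10 of 17 windows (58.8%), in 2 of 8 (25%) and in 35.9% of all windows. The motif TATAAA on either strand was present in 0 of 17, in 1 of 8 (12.5%) and in 14.2% of all. These counts describe the windows; no test was made, and the sets are small. The 4 windows printed are those of Drd2 and Chrna4, the genes with the highest and the lowest estimate between genotypes, and those of Htr7 and Chrne, the richest and the poorest in CpG among genes above background in no array. In these sequences, CG dinucleotides are in capitals, and each runs 5′ to 3′ on the strand of its gene.
Drd2, above background, 23 CpG, plus strand, chr9:49340153-49340452: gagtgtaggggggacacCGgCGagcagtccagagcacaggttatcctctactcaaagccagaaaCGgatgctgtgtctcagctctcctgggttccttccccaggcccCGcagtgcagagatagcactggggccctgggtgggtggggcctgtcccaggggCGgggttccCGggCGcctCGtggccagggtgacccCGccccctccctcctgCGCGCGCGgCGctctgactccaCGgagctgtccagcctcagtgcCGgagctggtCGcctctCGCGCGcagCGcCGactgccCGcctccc
Chrna4, above background, 33 CpG, minus strand, chr2:181039128-181039427: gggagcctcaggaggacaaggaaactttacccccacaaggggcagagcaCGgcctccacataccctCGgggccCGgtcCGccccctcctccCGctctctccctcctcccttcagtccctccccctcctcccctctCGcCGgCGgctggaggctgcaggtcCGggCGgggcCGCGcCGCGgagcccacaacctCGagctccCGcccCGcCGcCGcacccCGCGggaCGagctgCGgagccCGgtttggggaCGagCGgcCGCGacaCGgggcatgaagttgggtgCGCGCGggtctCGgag
Htr7, below background, 46 CpG, minus strand, chr19:36057311-36057610: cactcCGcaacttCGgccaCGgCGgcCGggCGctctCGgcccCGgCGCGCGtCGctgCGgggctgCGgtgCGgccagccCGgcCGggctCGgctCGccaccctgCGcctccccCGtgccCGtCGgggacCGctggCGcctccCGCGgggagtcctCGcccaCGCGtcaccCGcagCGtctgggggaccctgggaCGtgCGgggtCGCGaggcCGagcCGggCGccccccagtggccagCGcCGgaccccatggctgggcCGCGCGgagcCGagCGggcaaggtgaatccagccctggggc
Chrne, below background, 1 CpG, minus strand, chr11:70619145-70619444: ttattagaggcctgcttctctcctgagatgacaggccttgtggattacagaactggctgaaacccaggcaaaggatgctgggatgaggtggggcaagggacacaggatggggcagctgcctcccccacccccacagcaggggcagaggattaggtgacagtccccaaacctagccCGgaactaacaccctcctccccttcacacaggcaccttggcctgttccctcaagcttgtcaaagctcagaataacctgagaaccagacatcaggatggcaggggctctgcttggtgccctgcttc
The Htr7 window had more CpG than both printed windows from genes above background, while the Chrne window had a single CpG. Because Htr7 and Chrne were chosen as extremes, they show only the range among genes below the level (1 to 46). Windows of genes above background in all arrays covered a similar range (3 to 47).

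Between the genotypes, no receptor gene passed the test. In limma's fit over all 65529 probe sets, 0 of the 34 receptor genes passed an adjusted p of 0.05, with adjusted p from 0.835 to 0.998. Of all probe sets, 0% passed as higher and 0.00763% (5 probe sets) passed as lower in double knockout forebrains. At an unadjusted p of 0.05, 0 of the 34 passed, against 2.14% of the 13534 genes, and 0 of the 34 had groups that did not overlap, against 0.968% of genes. A count of 0 among 34 genes is close to what these shares would give. The estimated differences ran from -0.24 for Chrna4 to 0.25 for Drd2, and the 95% confidence interval of each of the 34 stayed within 1.5-fold in either direction, the widest reaching 1.48-fold, as did those of 91.1% of all genes. These intervals, taken gene by gene, do not show that the levels were equal. Because whole forebrain was measured, fewer cells of a type and less RNA per cell cannot be told apart.

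The signs leaned downward by a small amount. The difference was below 0 for 23 of 34 receptor genes (67.6%), against 60.6% of all genes, and the median difference was -0.07 for the receptor genes and -0.03 for all genes, whose 5th and 95th percentiles were -0.23 and 0.19. Without wild-type replicate 4, 24 of 34 were below 0 with a median of -0.06, against 61.9% and -0.03 for all genes. After quantile normalization the estimates of Htr1a, Htr2a, Chrm1, Chrm3 and Chrna5 moved from just above to just below 0, and after median centring that of Htr1a did. The replicate spread of receptor genes, a median within-group SD of 0.16, was like that of all genes (0.16), with Htr4 the tightest at 0.06 and Chrna5 the widest at 0.32.

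**Figure D2:**
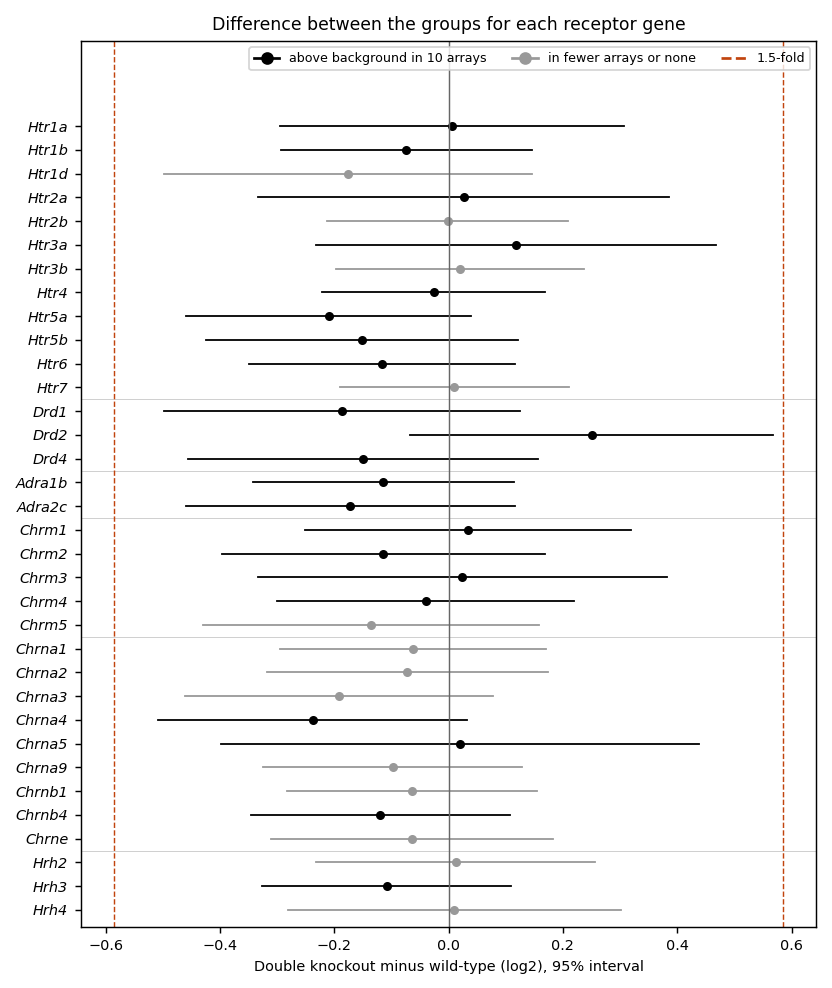
Double knockout minus wild-type difference (log2) of each of the 34 receptor genes with its 95% confidence interval from limma, n = 5 arrays per group, black for the 21 genes above background in all 10 arrays and grey for the others, with dashed lines at 1.5-fold. Every interval crosses 0 and stays between the dashed lines; Drd2 (0.25) and Chrna4 (-0.24) are the extremes.

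Among the dopamine receptors, Drd2 had the highest estimate of the 34 and rested partly on 1 array. Drd2, the Gi-coupled receptor of indirect-pathway striatal neurons and the autoreceptor of dopamine neurons, measured 8.91, 8.65, 8.66, 8.50 and 8.50 in double knockout forebrains, against 8.54, 8.58, 8.57, 7.96 and 8.32 in wild-type forebrains. The wild-type value of 7.96 came from replicate 4, and 3 of the remaining wild-type values lay within the double knockout range. The means were 8.64 ± 0.17 in double knockout and 8.39 ± 0.27 in wild-type forebrains (SD, n = 5 each), a difference of 0.25 (95% interval -0.07 to 0.57; limma adjusted p = 0.842), or 1.19-fold. An exact permutation test over all splits of the 10 arrays into groups of 5 gave a two-sided p of 0.111, where 0.00794 is the smallest possible. Without wild-type replicate 4 the wild-type mean was 8.50 ± 0.12 (SD, n = 4) and the difference was 0.14 (-0.12 to 0.40; limma adjusted p = 0.963).

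Drd1, the Gs-coupled receptor of direct-pathway striatal neurons, had the opposite sign. It measured 7.92, 7.43, 7.16, 7.54 and 7.66 in double knockout forebrains, against 7.64, 7.62, 7.90, 7.68 and 7.80 in wild-type forebrains. The double knockout values spread more widely (7.54 ± 0.28, against 7.73 ± 0.12 in wild-type) and contained the wild-type range; the difference was -0.19 (-0.50 to 0.13). Without double knockout replicate 3, the lowest array, it was -0.09, and without double knockout replicate 1, the highest, it was -0.28. Drd4, a Gi-coupled receptor found in cortex and retina, averaged 6.82 ± 0.13 in double knockout and 6.97 ± 0.27 in wild-type forebrains, a difference of -0.15 (-0.46 to 0.16) that shrank to -0.04 without wild-type replicate 4, the highest array for this gene at 7.42. Neither passed the test.

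Since Drd1, Drd2 and Chrm4 are genes of striatal projection neurons, their values were set beside the mean level of the 12 measured striatal markers. That level was 8.22 to 8.27 in double knockout arrays and 8.12 to 8.42 in wild-type arrays; wild-type replicate 4 had the highest and replicate 5 the lowest, with the other 8 arrays between 8.21 and 8.30. Of the 12 markers, 5 had estimates above 0 and 7 below 0 with a median difference of -0.01, and 0 passed the test. Over the 10 arrays Drd2 correlated with the striatal level at r = -0.466 (permutation p = 0.175; Spearman rho = -0.176, permutation p = 0.625), Drd1 at r = 0.0119 (permutation p = 0.973; rho = 0.152, permutation p = 0.682) and Chrm4 at r = -0.287 (permutation p = 0.437; rho = -0.164, permutation p = 0.650). Drd2 and Drd1 correlated with each other at r = -0.0525 (permutation p = 0.886; rho = -0.195, permutation p = 0.589). In this family of 5 correlations, Benjamini-Hochberg adjusted p for these r values was 0.437, 0.973, 0.729 and 0.973, and for these rho values 0.682 each.

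Leaving out the 2 arrays farthest from the median striatal level, wild-type replicates 4 and 5, gave r of -0.262 for Drd2, 0.259 for Drd1 and 0.399 for Chrm4. Leaving out double knockout replicates 1 and 3, the farthest on Drd1, gave -0.260 for Drd2 and Drd1. After each group's mean was subtracted, r was -0.553 for Drd2, 0.0143 for Drd1 and -0.290 for Chrm4 against the striatal level, and 0.235 between Drd2 and Drd1. The low Drd2 value in wild-type replicate 4 thus came from the array with the highest mean striatal marker level. Without that array alone, the correlation of Drd2 with the marker level was r = 0.371, the opposite sign. In that array Pdyn, Ebf1, Six3, Sp9 and Gnal had their highest value of all arrays. Foxp1 had its lowest, shared with wild-type replicate 5, and Foxp2, Meis2 and Rgs9 their next to lowest. The array also had the highest mean of the basal forebrain, thalamic and hypothalamic, monoamine neuron, skeletal muscle and acetylcholine lists. It had the lowest mean of the cortical and hippocampal list (8.70) and was neither highest nor lowest for several other lists. Its high striatal level was therefore neither particular to striatal markers nor general to all lists. The SD of its values was also the smallest of all arrays (1.72, against 1.77 to 1.82 in the others).

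**Figure D3:**
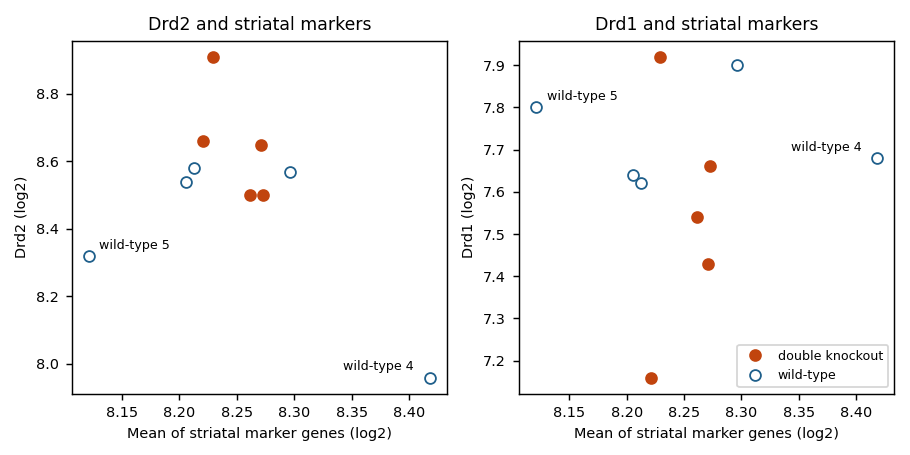
Drd2 (left) and Drd1 (right), in log2, against the mean log2 level of 12 striatal projection neuron markers, 1 point per array, with filled points for double knockout and open points for wild-type. Wild-type replicates 4 and 5 lie at the ends of the marker axis (8.42 and 8.12), and the other 8 arrays lie between 8.21 and 8.30.

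The serotonin receptors were the largest family measured. Htr1a and Htr1b are Gi-coupled receptors, the autoreceptors of serotonin neurons and also receptors of their targets. Htr1a averaged 7.25 ± 0.20 in double knockout and 7.25 ± 0.21 in wild-type forebrains, a difference of 0.01 (-0.30 to 0.31), which was -0.08 without wild-type replicate 4. Htr1b averaged 7.68 ± 0.05 in double knockout and 7.75 ± 0.14 in wild-type forebrains, a difference of -0.07 (-0.29 to 0.15; -0.04 without wild-type replicate 4 or without wild-type replicate 5).

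Htr2a, the Gq-coupled receptor of cortical pyramidal neurons, ran from 8.04 to 8.62 in double knockout and from 7.96 to 8.69 in wild-type forebrains, so that the groups covered nearly the same range (difference 0.03, -0.33 to 0.39; -0.01 without wild-type replicate 4). Htr3a, the ion channel subunit that marks a class of cortical interneurons, measured 7.32, 7.46, 7.14, 7.66 and 7.35 in double knockout forebrains, against 6.94, 7.0, 7.69, 7.37 and 7.34 in wild-type forebrains. Wild-type replicates 1 and 2 were the lowest of all 10, and replicate 3 was the highest. The difference was 0.12 (-0.23 to 0.47), and it was 0.04 without wild-type replicate 1, 0.05 without wild-type replicate 2 or double knockout replicate 4, and 0.22 without wild-type replicate 3. Its partner subunit Htr3b was below background in every array.

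Htr5a, a Gi-coupled receptor, had the smallest p of the serotonin family. It measured 7.85, 7.43, 7.41, 7.62 and 7.63 in double knockout forebrains, against 7.78, 7.69, 7.83, 7.73 and 7.96 in wild-type forebrains. All double knockout arrays but replicate 1 lay below every wild-type array. The means were 7.59 ± 0.18 and 7.80 ± 0.10 (SD, n = 5 each), a difference of -0.21 (-0.46 to 0.04; limma adjusted p = 0.836; exact permutation p = 0.0714). A pair of dimmer probe sets carried the same symbol and had estimates of -0.10 (-0.74 to 0.54), above background in 8 arrays, and -0.12 (-0.56 to 0.33), above it in 0. Of the serotonin receptors not described singly (Htr1d, Htr2b, Htr3b, Htr4, Htr5b, Htr6 and Htr7), estimates lay between -0.18 and 0.02.

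Both adrenergic receptor genes were above background. Adra2c, a Gi-coupled receptor of striatum and other forebrain regions, measured 6.98, 6.78, 6.72, 7.19 and 6.88 in double knockout forebrains, against 6.87, 7.01, 7.18, 7.37 and 6.98 in wild-type forebrains. The lowest 2 values were from double knockout pups and the highest from wild-type replicate 4. The difference was -0.17 (-0.46 to 0.12; limma adjusted p = 0.869), and -0.10 without that replicate. Adra1b, a Gq-coupled receptor, averaged 6.12 ± 0.10 in double knockout and 6.23 ± 0.13 in wild-type forebrains, a difference of -0.11 (-0.34 to 0.11). Hrh3, the Gi-coupled histamine receptor that also acts on the endings of other transmitters' axons, averaged 6.92 ± 0.13 in double knockout and 7.02 ± 0.07 in wild-type forebrains, a difference of -0.11 (-0.33 to 0.11).

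Muscarinic receptors differed little between genotypes. Chrm1, the Gq-coupled receptor of cortical and hippocampal neurons, averaged 8.68 ± 0.15 in double knockout and 8.65 ± 0.22 in wild-type forebrains, with double knockout replicate 4 apart from its group at 8.94 (difference 0.03, -0.25 to 0.32; 0.02 without wild-type replicate 4). Chrm2, a Gi-coupled receptor and autoreceptor of cholinergic neurons, averaged 7.71 ± 0.17 in double knockout and 7.83 ± 0.20 in wild-type forebrains (difference -0.11, -0.40 to 0.17; -0.06 without wild-type replicate 4). Chrm3, Gq-coupled, averaged 7.59 ± 0.16 in double knockout and 7.57 ± 0.33 in wild-type forebrains.

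The wide wild-type spread of Chrm3 came from replicate 4, which read 7.03 while the remaining wild-type arrays read 7.45 to 7.81, and the difference of 0.02 (-0.33 to 0.38) became -0.11 without it. Chrm4, the Gi-coupled receptor of direct-pathway striatal neurons, differed by -0.04 (-0.30 to 0.22; -0.09 without wild-type replicate 4), with 6.51 to 6.87 in double knockout and 6.50 to 6.94 in wild-type forebrains. Chrm5, Gq-coupled and known from midbrain dopamine neurons, was close to background, at 6.02 to 6.22 in double knockout and 5.97 to 6.66 in wild-type forebrains (difference -0.14, -0.43 to 0.16). Its highest value was in wild-type replicate 3, without which the difference was -0.03.

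Chrna4, which assembles with the Chrnb2 subunit into the most common nicotinic receptor of the brain, had the lowest estimate of the 34. It measured 7.64, 7.59, 7.62, 7.91 and 7.87 in double knockout forebrains, against 7.82, 7.74, 7.98, 8.08 and 8.20 in wild-type forebrains. Double knockout replicates 1, 2 and 3 lay below every wild-type array, and replicates 4 and 5 lay within the wild-type range. The means were 7.73 ± 0.15 and 7.96 ± 0.19 (SD, n = 5 each), a difference of -0.24 (-0.51 to 0.03; limma adjusted p = 0.835; exact permutation p = 0.0556), or 1.18-fold. Without wild-type replicate 4 it was -0.21.

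Chrna5 and Chrnb4, with Chrna3, lie side by side in the genome as a cluster and encode subunits known from autonomic ganglia and the habenula. Chrna5 measured 6.64, 6.65, 6.56, 7.17 and 6.55 in double knockout forebrains, against 6.83, 6.37, 7.22, 6.31 and 6.74 in wild-type forebrains. A single array of each group, double knockout replicate 4 and wild-type replicate 3, was the highest. The difference was 0.02 (-0.40 to 0.44), and -0.08 without wild-type replicate 4. Chrnb4 averaged 6.06 ± 0.07 in double knockout and 6.18 ± 0.15 in wild-type forebrains, with wild-type replicate 1 the lowest at 5.92 (difference -0.12, -0.35 to 0.11). Chrna3, chosen for mention with its cluster after its values were seen, ran from 5.70 to 6.11 in double knockout and from 5.91 to 6.30 in wild-type forebrains (difference -0.19, -0.46 to 0.08). The 5 nicotinic subunits below background in every array had estimates between -0.10 and -0.06.

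**Figure D4:**
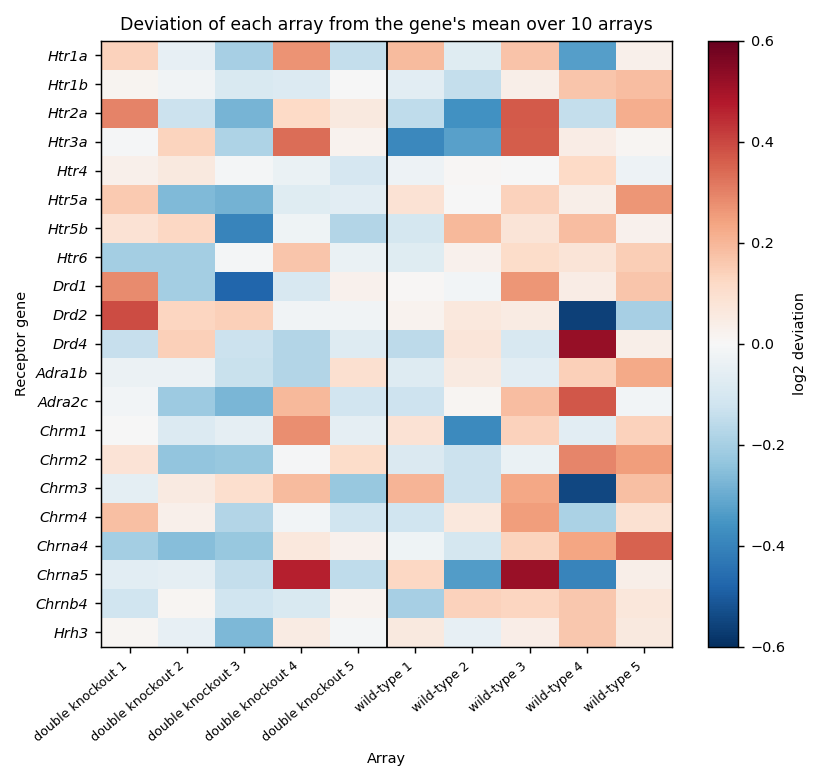
Deviation (log2) of each array from the gene's mean over all 10 arrays for the 21 receptor genes above background in every array, with double knockout arrays left of the line and wild-type arrays right of it. The darkest cells sit in single arrays, such as wild-type replicate 4 for Drd2, Drd4 and Chrm3, and no gene separates the groups.

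Chrna1, the muscle subunit, was read beside muscle markers. This gene, below background in all arrays, correlated with the mean of 9 skeletal muscle markers at r = 0.699 over 10 arrays (permutation p = 0.0173, adjusted over the 5 correlations 0.0863; rho = 0.654, permutation p = 0.0445, adjusted 0.222). Without wild-type replicates 4 and 1, the farthest on the marker level, r was 0.324. The marker level lay at 5.58 to 5.71 in double knockout and at 5.54 to 5.80 in wild-type arrays, under the background level of every array. Wild-type replicate 4 was the highest array for Chrna1 (5.52) and for the marker level (5.80), and it also had the highest background level (6.22). Whether the relation follows muscle RNA or array background was not tested. Leaving out wild-type replicate 4 alone gave r = 0.444, and leaving out wild-type replicate 1 alone gave r = 0.701. The relation did not pass the adjustment.

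The genes that make, move and break down the transmitters were also without a call. Of 17 measured genes for monoamine synthesis, transport and breakdown, 0 passed the test, with 5 estimates above 0, 12 below 0 and a median of -0.07. Exactly 10 of them were above background in all arrays and 7 in none. The pair with the smallest p were Maob, a monoamine oxidase, at 6.34 ± 0.27 in double knockout and 6.60 ± 0.34 in wild-type forebrains (difference -0.26, -0.67 to 0.15), and Spr, sepiapterin reductase of tetrahydrobiopterin synthesis, at 8.50 ± 0.15 in double knockout and 8.64 ± 0.15 in wild-type forebrains (difference -0.14, -0.39 to 0.11). Ddc, Dbh and Hdc, enzymes of monoamine synthesis, were below background in every array. Of the genes that load monoamines into vesicles, Slc18a2 was above background in every array (6.15 to 6.47) and Slc18a1 in none. Of 6 measured markers of midbrain and hindbrain monoamine neurons, 4 were below background in every array. Slc6a3 and Pitx3 (6.13 to 6.95) were above background in every array. The mean level of the 6 markers was 5.64 to 5.70 in double knockout and 5.61 to 5.99 in wild-type arrays.

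For acetylcholine, 0 of 8 measured genes passed, with 3 estimates above and 5 below 0 and a median of -0.07. Chat, which makes acetylcholine, and Slc18a3, which loads it into vesicles, were below background in every array, while Ache, which degrades it, was above. Slc18a3 measured 5.27, 5.51, 5.52, 5.55 and 5.13 in double knockout forebrains, against 4.99, 5.35, 4.17, 5.68 and 5.00 in wild-type forebrains. Both its highest and its lowest value were wild-type, and its estimate of 0.36 (-0.17 to 0.88) came with 1 low value of 4.17 in wild-type replicate 3. Acly, which supplies acetyl-CoA, differed by -0.10 (-0.33 to 0.12). Of 10 partners of nicotinic receptors, 0 passed and the median was -0.05; Dok7, an adaptor at the neuromuscular junction, differed by -0.16 (-0.38 to 0.06), and Lypd6, a modulator of nicotinic receptors, by -0.13 (-0.37 to 0.10).

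Downstream of the receptors, 0 of 22 measured G protein and effector genes passed, with 4 estimates above 0 and a median of -0.05. Of the other 18, Gng3 had equal group means (11.29 in each genotype). The rest were below 0, against 60.6% of all genes. Gng4, a G protein gamma subunit, had the smallest p of this list. It measured 9.14, 9.25, 9.04, 9.22 and 9.39 in double knockout forebrains, against 9.34, 9.59, 9.52, 9.78 and 9.74 in wild-type forebrains. The groups overlapped only through double knockout replicate 5 and wild-type replicate 1. Its difference was -0.39 (-0.64 to -0.13), with an adjusted p of 0.774 in limma's fit over all probe sets. Gng8, another gamma subunit, was below background in every array, at 5.70 to 5.73 in double knockout and 5.79 to 6.02 in wild-type forebrains (difference -0.18, -0.38 to 0.02; limma adjusted p = 0.828). Of 16 measured genes for receptor desensitisation and regulators of G protein signalling, 0 passed, with 5 above 0, 11 below 0 and a median of -0.06; Rgs16 differed by -0.18 (-0.45 to 0.10) and Gpsm1 by -0.14 (-0.36 to 0.07).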

How the data were processed

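RNA from 10 newborn mouse forebrains was hybridised to exon arrays, 5 per genotype. The deposited values are log2 expression. The submitters' processing notes name RMA, Affymetrix Expression Console and build mm8, with no version. RMA removes background, equalises the arrays and combines probes, so differences are relative to the other genes of an array, and dim genes are compressed. Values carry 2 decimals. Of 65529 probe sets, 15419 had 1 gene symbol in the platform annotation, 961 several and 49149 none; 15071 matched a gene of GRCm38.p6.

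Groups were compared with limma 3.58.1 (R 4.3.3; lmFit, eBayes, genotype only), with Benjamini-Hochberg adjustment over all 65529 probe sets and two-sided p. The pipeline was tested on simulated data. The number of arrays limits the precision; each array is a separate animal. Adjusted p for single genes comes from this fit, single-gene permutation tests are exact, and correlations used 100000 resamples with Benjamini-Hochberg adjustment over 5.

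Drd2, genes past the threshold, up to 5 members above background per family (highest mean first), the smallest p per family and members whose groups do not overlap were described singly, and from each pathway list the 2 with the smallest p. The members and lists were chosen with earlier results of these data known. Alternatives were other normalizations, a filter on dim probe sets, other fit settings, other background levels, a replicate block and leaving out each array. Animals with the nearest numbers were taken as trial pairs; their deviations correlated at over 0.1 in 4 of 5 pairs (0.173 to 0.355) and at -0.068 in the other. Since not every pair passed 0.1, the numbers were not taken as pairing the pups, although the series holds littermates. This cut cannot decide which pups were littermates, because no correlations outside the trial pairs are given for comparison. The main intervals and permutation tests therefore leave any pairing out.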

Additional observations from a re-analysis of the deposited data

Results flagged for a closer look

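There were 68 groups of 5 arrays (34 receptor genes in each genotype). Of these, 4 held an array whose gap to its nearest neighbour took up an unusually large share of the group's range. Chance alone gives about 1 in 20, so a count of 4 in 68 is close to the chance share. In double knockout forebrains, Chrm1 measured 8.94 in replicate 4, against 8.58 to 8.66 in the other double knockout arrays. Chrna5 measured 7.17 in the same array, against 6.55 to 6.65 in the others of its group. In wild-type forebrains, Chrnb4 measured 5.92 in replicate 1, against 6.19 to 6.28 in the others. Htr4, the Gs-coupled serotonin receptor, measured 6.47 in wild-type replicate 4, against 6.32 to 6.36 in the others.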

How the results depend on the processing

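Under every alternative run (other normalizations, fit settings, a filter on dim probe sets, the mean of a gene's probe sets, a replicate block and leaving out each array), 0 receptor genes were called. The lowest adjusted p was 0.620, without wild-type replicate 1, and 0.718 with the replicate block on trial pairs. The estimate for Drd2 stayed above 0 and that for Chrna4 below 0 in all of these; leaving out 1 array moved Drd2 between 0.14 and 0.30. Quantile normalization, which put the median of all genes at -0.05, turned the signs of Htr1a (-0.0298), Htr2a (-0.0098), Chrm1 (-0.0072), Chrm3 (-0.0072) and Chrna5 (-0.0076), and median centring (median of all genes -0.04) that of Htr1a (-0.002). Leaving out 1 array gave ranges across 0 for Htr1a (-0.076 to 0.057), Htr2a (-0.061 to 0.1215), Chrm1 (-0.0575 to 0.0725), Chrm3 (-0.11 to 0.085), Chrm4 (-0.092 to 0.018) and Chrna5 (-0.094 to 0.1515), and on 1 side of 0 moved by over 1.5 times Htr1b (-0.119 to -0.0365), Htr3a (0.036 to 0.2235), Drd1 (-0.2805 to -0.0905), Drd4 (-0.208 to -0.038), Adra1b (-0.152 to -0.072), Adra2c (-0.242 to -0.1), Chrm2 (-0.1605 to -0.0555), Chrm5 (-0.202 to -0.0295), Chrnb4 (-0.185 to -0.095) and Hrh3 (-0.134 to -0.054). Over all probe sets, the 5 calls (0 higher, 5 lower) became 3 with 1-symbol probe sets only (1 higher, 2 lower), 2 with the replicate block, 1 at a threshold of 0.01 and 1 to 6 without 1 array. With the 99th percentile as background level 9 receptor genes passed, and 20 to 24 under the other levels and settings. Leaving out 1 array moved r for Drd2 and striatal markers between -0.825 and 0.371, for Drd1 between -0.135 and 0.213, for Chrm4 between -0.515 and 0.085 (0.399 without the 2 farthest arrays), for Drd2 and Drd1 between -0.402 and 0.145 (0.235 after subtracting group means) and for Chrna1 and muscle markers between 0.444 and 0.753, whose adjusted p was 0.0453 without double knockout replicate 5. The cause was not tested. A correlation of Htr2c with choroid plexus markers was not run because Htr2c is not analysed here. Dim signal limits the 13 receptor genes not above background in all arrays.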

Other observations

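Among the 21 receptor genes above background in all arrays, Htr3a, Chrm1, Chrm3 and Chrna5 were at their group's highest in both double knockout replicate 4 and wild-type replicate 3. Double knockout replicate 4 held the highest value of its group for 9 of the 21 and wild-type replicate 3 for 7. This was noticed after the values were seen and was not tested. The share of all genes that were highest in these arrays is not given, so the counts may not be particular to receptor genes.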
